A study of Mus musculus with 4 samples.

Results

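The nuclear-encoded respiratory chain genes described here are the 85 genes, of 18702 listed in each library, whose symbols name a subunit family of respiratory complexes I to IV or of ATP synthase (complex V): Ndufa, Ndufb, Ndufc, Ndufs and Ndufv with a number, Sdha to Sdhd, Uqcr and Cyc1, Cox4 to Cox8, and Atp5. The rule reads symbols and no measured value. By complex they were 36 genes of complex I, 4 of complex II, 9 of complex III, 14 of complex IV, 3 muscle isoforms of complex IV subunits (Cox6a2, Cox7a1 and Cox8b), and 17 of complex V. Ndufa4 was counted in complex IV, where its protein is now placed. Ndufa4l2 and Cox7a2l have matching symbols but encode no subunit of these complexes in the usual sense, and were kept apart. The comparison was between eye tissue of wild-type C57BL/6 mouse embryos (2 libraries) and eye tissue of C57BL/6 embryos labelled as knockout, Anp32b-/- (2 libraries); Anp32b encodes a histone-binding nuclear protein of the leucine-rich acidic family. Total RNA was sequenced, and levels are given as FPKM, fragments scaled to transcript length and to the library total, so that levels can be set beside each other between genes. Stage, sex, the number of embryos pooled in a library, and whether replicate libraries are from different embryos are not known from the sources used. The p-values therefore measure the spread among these 4 samples alone, and that spread may be technical.

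The respiratory chain of the inner mitochondrial membrane passes electrons from NADH through complex I and from succinate through complex II to ubiquinone, and on through complex III, cytochrome c and complex IV to oxygen. Complexes I, III and IV pump protons, and complex V uses the resulting gradient to make ATP. A few subunits of complexes I, III, IV and V are encoded by mitochondrial DNA and were not analysed here, and all the others are encoded in the nucleus. Several nuclear subunits of complex IV exist as paired isoforms, with a widespread form and a form found mainly in heart, skeletal muscle or brown fat.

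The steps between low FPKM values placed the depth of each library at 17960000 to 18060000 fragments, an estimate that was least sharp in knockout replicate 2. In that library a distant depth fitted almost as well (score 0.424 against 0.434), so its depth is not settled. The targeted gene Anp32b was measured at 163.18 and 179.12 FPKM in wild type, and still at 94.53 and 92.67 FPKM in the libraries labelled knockout. Which exons were removed is not known from the sources used, so this total does not test the labels. The tissue differed widely between the groups. Of 19 lens markers all 19 were lower in the knockout, and their summed level was 70728 and 70928 FPKM in the wild type and 6201 and 6249 FPKM in the knockout. Markers of neural retina were mostly lower (9 of 11, with 1 higher), while all 10 of periocular mesenchyme, all 7 of surface epithelium and all 20 of skeletal muscle were higher. By the threshold given below, 33.5% of all genes tested were higher and 21.1% lower. In bulk tissue, fewer cells of a type and less RNA per cell cannot be told apart, and the part of this change of tissue in the results below was not tested except where a value is given.

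Most respiratory chain genes were abundant and differed little between the groups. Of the 85 genes, 84 averaged 1 FPKM or more over the 4 libraries and were tested, with a median level of 83.2 FPKM against 12.2 FPKM for all 13887 genes tested. In the limma fit on log2(FPKM + 1), with a threshold of 0.05 on the adjusted p, 17 were higher in the knockout, 9 were lower and 58 did not pass. The 26 called genes are 31.0% of the members tested, beside 54.6% of all genes tested (33.5% higher and 21.1% lower). The groups did not overlap in 46 members (54.8%), 34 upward and 12 downward, beside 77.9% of all genes tested (45.6% upward and 32.4% downward). The median log2 fold change was 0.05 for the members and 0.04 for all genes tested, with interquartile ranges of 0.14 and 0.36. A change of less than 0.2 on the log2 scale in either direction was found for 72 of the 84 members (85.7%) and for 54.9% of all genes tested. This was not particular to the respiratory chain, since 85.9% of the 78 mitochondrial ribosomal protein genes lay in the same range and 23.1% of them were called. Among genes averaging 50 FPKM or more, 19 of 66 members were called (28.8%), and 944 of all 1448 genes (65.2%). In that range the libraries of a group also lay farther apart for the members, with a median within-group SD of 0.052 on the log2 scale against 0.029 for all genes there. Transcripts of the members tested were short, with a median of 572 bases against 1745 for all genes tested. Equal FPKM therefore stands for fewer fragments in a shorter transcript, and the part of length in the called share was not tested. Wild-type replicate 2 exceeded wild-type replicate 1 in 64 of 84 members, by a median of 0.069, beside 6377 of all 13887 genes and a median of −0.007. Knockout replicate 2 exceeded knockout replicate 1 in 48 of 84, by a median of 0.018, beside 6863 of 13887 and a median of 0.

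Only 5 members were past the threshold with a log2 fold change of at least 0.5 in size (5.95%, beside 15.6% of all genes tested): the muscle isoforms Cox8b, Cox6a2 and Cox7a1 upward, and Ndufa1 and Cox4i2 downward. Small changes depended on how the libraries were scaled. The deposited TPM values shift the median of all genes tested to 0.16, median-of-ratios scaling to −0.01, correction for GC content and length of transcripts to −0.03, and scaling to the FPKM that remains once crystallin and erythroid genes are taken out, called lens-free scaling here, to −0.04. The members' median moved with it, to 0.17, 0.00, −0.02 and −0.04. With TPM 54 members were higher and 3 lower, where 47.8% of all genes tested were higher and 11.4% lower (59.2% in all). With lens-free scaling 7 were higher and 25 lower, beside 24.9% and 32.1% of all genes (57.0%). Median-of-ratios scaling gave 9 and 12, beside 27.9% and 27.3% (55.2%), and GC and length correction gave 10 and 17, beside 25.8% and 30.4% (56.2%). Under FPKM and all 4 of these scalings, 7 members stayed higher (Cox8b, Cox6a2, Cox7a1, Ndufb4, Ndufa6, Cox7b and Ndufa4l2) and 3 stayed lower (Ndufa1, Cox4i2 and Ndufc1). The matching share over all genes was not taken, so whether these counts are few or many is not known.

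**Figure D1:**
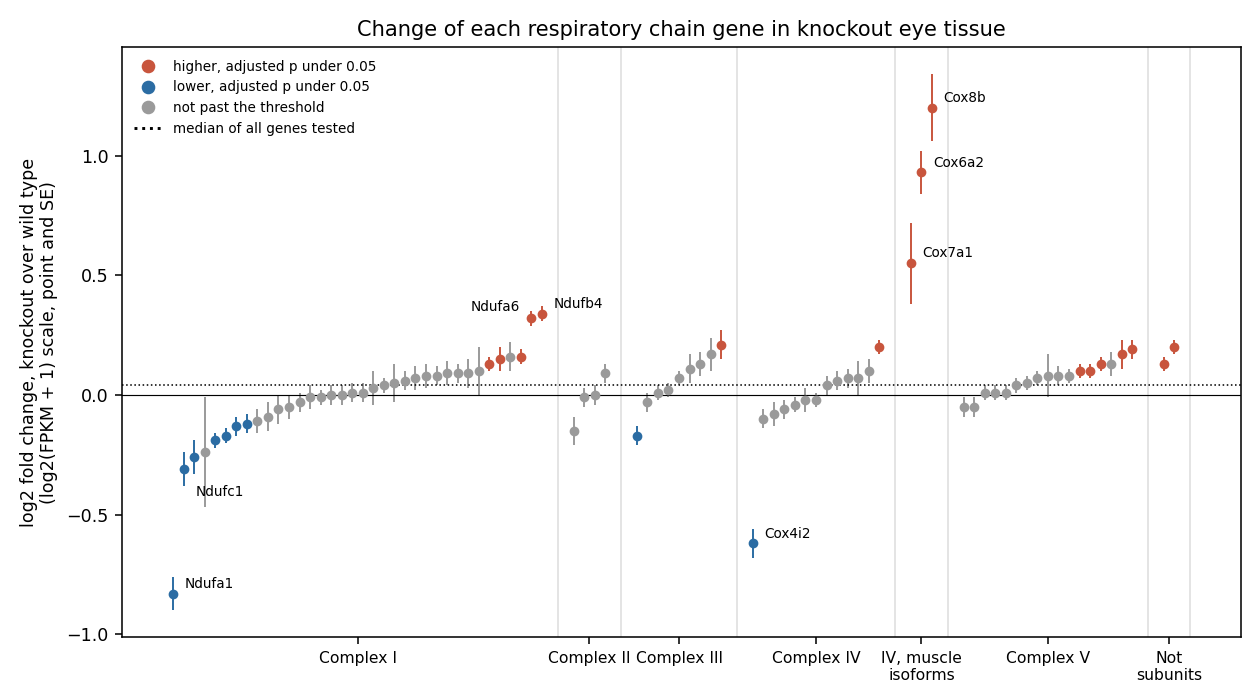
Log2 fold change of the 84 tested genes, knockout over wild type, with its SE, grouped by complex and ordered within each, on the log2(FPKM + 1) scale with 2 libraries per group. Most points lie within 0.2 of 0, while Cox8b (1.20), Cox6a2 (0.93) and Cox7a1 (0.55) stand above the rest and Ndufa1 (−0.83) and Cox4i2 (−0.62) below.

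The sums over the genes of each complex were close in FPKM. The 36 complex I genes summed to 2232 and 2366 FPKM in the wild type and 2264 and 2278 FPKM in the knockout. Complex II summed to 259.6 and 277.7 FPKM against 264.2 and 265.2 FPKM, and the 14 complex IV genes to 1885 and 1996 FPKM against 1926 and 1974 FPKM. In these 3 complexes both knockout sums lay between the wild-type sums. For complex III the sums were 735.0 and 793.7 FPKM in the wild type and 821.5 and 818.8 FPKM in the knockout, and for complex V they were 3026 and 3131 FPKM against 3204 and 3230 FPKM. The knockout sums of these 2 complexes lay above both wild-type sums, with means at 107% and 105% of the wild-type mean in FPKM. In TPM the knockout sums lay above both wild-type sums in all 5 complexes, with means at 107% for complexes I and II, 109% for IV, 114% for V and 117% for III. Lens-free and median-of-ratios scaling were not applied to the sums, and both lower knockout values relative to wild type. With lens-free scaling the median log2 fold changes of complexes I to V were −0.07, −0.1, −0.02, −0.1 and −0.01 in turn. The higher knockout sums are therefore shown for FPKM and TPM alone. As a share of the FPKM of all 85 genes, which library scaling cannot change, complex V took 35.81% and 35.26% in the wild type and 36.21% and 36.12% in the knockout, and complex I took 26.42% and 26.65% against 25.59% and 25.47%. No test was run on these shares, since 2 libraries against 2 cannot give an exact permutation p below 0.333.

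**Figure D2:**
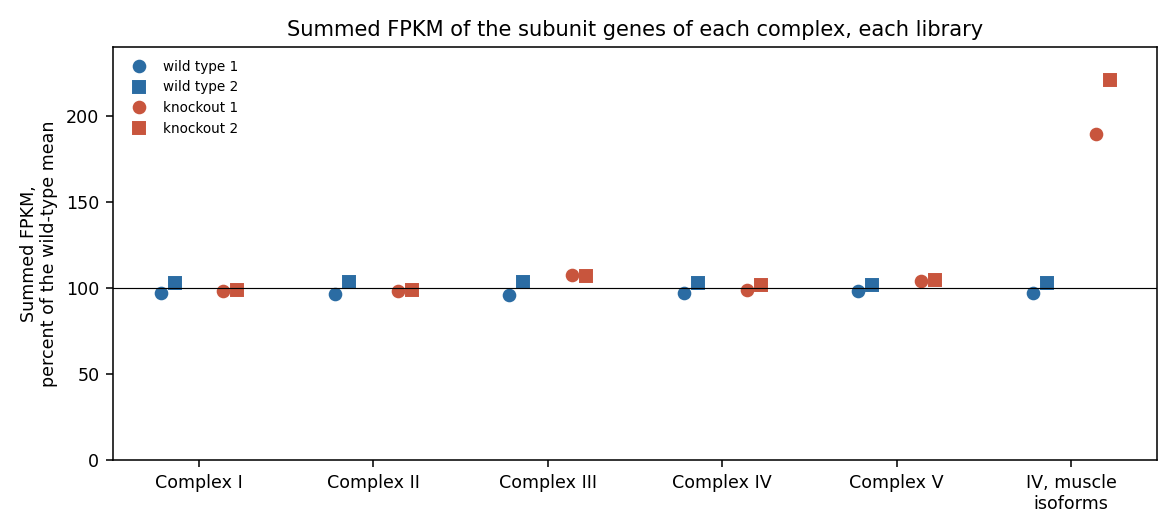
Summed FPKM of the genes of each complex in each library, as a percent of the mean of the 2 wild-type libraries; circles are replicate 1 and squares replicate 2. The sums of complexes I to V lie close to 100 in every library, and the 3 muscle isoforms of complex IV have a knockout mean of 205% of the wild-type mean.

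Complex I is the NADH dehydrogenase through which electrons enter the chain. Of its 36 genes 5 were higher, 7 lower and 24 not past the threshold, with a median of 0.01. The called share was 33.3%, beside 54.6% of all genes tested. The split was 18 higher and 2 lower with TPM, 3 and 8 with median-of-ratios scaling, 2 and 9 with GC and length correction, and 2 and 12 with lens-free scaling. The shares of all genes tested under each scaling, given above, belong beside these splits and those of the other complexes. The 12 genes called with FPKM were all among the accessory subunits, which surround the core and make up most of the 36 genes. Of the 7 core subunits in the set, none was called with FPKM or median-of-ratios scaling, 5 were higher with TPM, 2 were lower with lens-free scaling and 1 was lower with GC and length correction.

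Ndufa1 (Entrez 54405, GRCm38 chromosome X, positions 37187588 to 37191163, minus strand), a small accessory subunit of the membrane arm needed for assembly of the complex, was at 108.41 and 113.50 FPKM in the wild type and at 67.12 and 57.12 FPKM in the knockout. Both knockout libraries were well below both wild-type libraries. The level in the knockout averaged 56.0% of wild type (−0.83 on the log2 scale, SE 0.07, limma adjusted p = 8.76e-05), and the call held under all 12 alternatives, within −0.95 to −0.72. Its share of the FPKM of complex I was 4.86% and 4.80% in the wild type and 2.96% and 2.51% in the knockout. Without it the complex I sum was 2188 ± 91.1 FPKM in the wild type and 2209 ± 16.6 FPKM in the knockout (SD, n = 2). The other X-linked members were Ndufb11 of complex I (0.04, not past the threshold) and Cox7b of complex IV (0.20). No annotated gene overlaps Ndufa1, and no annotated pseudogene transcript matched it at 95% identity over 200 bases.

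The next largest falls in complex I were smaller. Ndufc1 was at 71.90 and 80.24 FPKM in the wild type and 57.86 and 64.76 FPKM in the knockout (−0.31, SE 0.07, adjusted p = 0.00707). Its groups did not overlap, but omitting wild-type replicate 2 (adjusted p = 0.0612) or knockout replicate 1 (0.0764) ended the call, and the 12 alternatives gave 6.66e-05 to 0.0764. Ndufa12, which sits near the core in the matrix arm, was at 39.21 and 43.45 FPKM against 32.20 and 36.56 FPKM (−0.26, adjusted p = 0.0166). That call was lost with TPM, without a filter on low values, without wild-type replicate 2 and without knockout replicate 1 (adjusted p from 3.42e-04 to 0.129 over the alternatives), and the fold change was −0.17 without knockout replicate 1. Ndufb7, Ndufb8, Ndufc2 and Ndufb2 were lower by 0.12 to 0.19, in each case not with TPM.

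Upward, Ndufb4 and Ndufa6 stood apart within complex I. Ndufb4, an accessory subunit of the membrane arm, was at 50.57 and 50.66 FPKM in the wild type and at 63.66 and 65.22 FPKM in the knockout (0.34, SE 0.03, adjusted p = 1.08e-04). Ndufa6, a LYR-motif subunit that binds the mitochondrial acyl carrier protein, was at 67.86 and 67.78 FPKM against 83.68 and 85.77 FPKM (0.32, SE 0.03, adjusted p = 1.37e-04). Neither gene had overlapping groups, and both calls held under all 12 alternatives. For Ndufb4 an annotated pseudogene carries a near-identical stretch, so its value is uncertain. Ndufa8 was at 55.47 and 55.77 FPKM against 62.94 and 61.76 FPKM (0.16, adjusted p = 0.00326), but was not called with lens-free scaling or with GC and length correction. Ndufb9 (0.13) and Ndufa5 (0.15) were called higher with FPKM and, of the 4 other scalings, with TPM alone. The least certain member was Ndufb4c, with 18.63 and 14.71 FPKM in the wild type and 18.63 and 10.31 FPKM in the knockout.

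Complex II, succinate dehydrogenase, is encoded wholly in the nucleus. None of its 4 genes passed the threshold with FPKM, where 54.6% of all genes tested did. The changes were −0.15 for Sdhb, which encodes the iron-sulfur subunit, −0.01 for Sdhc and 0.00 for the flavoprotein gene Sdha, and 0.09 for Sdhd. With TPM 3 of them were called higher, and with each of the other 3 scalings 1 was called lower. Of all genes tested, 47.8% were higher with TPM, and 27.3% to 32.1% were lower with the other 3 scalings.

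In complex III, which passes electrons from ubiquinol to cytochrome c, 1 of 9 genes was higher and 1 lower (22.2% called, beside 54.6% of all genes tested). The split was 7 higher and 0 lower with TPM, 0 and 1 with median-of-ratios scaling, 1 and 1 with GC and length correction, and 0 and 2 with lens-free scaling. Uqcrh, the acidic hinge protein that helps cytochrome c bind, was at 175.06 and 198.83 FPKM in the wild type and 219.52 and 213.09 FPKM in the knockout (0.21, SE 0.06, adjusted p = 0.0175). Uqcrq, a small subunit, was at 26.36 and 27.74 FPKM against 23.33 and 24.60 FPKM (−0.17, SE 0.04, adjusted p = 0.0149). Although neither gene's groups overlapped, Uqcrh was not called with median-of-ratios scaling (adjusted p = 0.0546), with lens-free scaling, without a filter or without either knockout library (0.00144 to 0.145 over the alternatives). Its fold change was 0.12 without wild-type replicate 1 and 0.30 without wild-type replicate 2. Uqcrq was not called with TPM, without wild-type replicate 2 or without knockout replicate 1 (0.00157 to 0.325). The core genes Uqcrc1 (72.5 ± 0.240 and 73.4 ± 1.62 FPKM), Uqcrc2, Uqcrfs1 and Cyc1 were within 0.07 of 0.

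Complex IV, cytochrome c oxidase, had 13 genes tested apart from the muscle isoforms, of which 1 was higher, 1 lower and 11 not past the threshold, with a median of −0.02. This is 15.4% called, beside 54.6% of all genes tested. The split was 7 and 1 with TPM and 1 and 6 with lens-free scaling. Cox4i2 (Entrez 84682, chromosome 2, positions 152754173 to 152765037, plus strand), the isoform of subunit IV known from lung and from cells short of oxygen, was at 47.28 and 45.50 FPKM in the wild type and 27.98 and 31.78 FPKM in the knockout. Its groups lay far apart, at −0.62 on the log2 scale (SE 0.06, adjusted p = 1.55e-04), a fall called under all 12 alternatives. The widespread isoform Cox4i1 was at 357.6 ± 8.10 and 348.9 ± 9.93 FPKM (SD, n = 2) and did not pass the threshold with FPKM, though it was called lower with lens-free scaling (−0.12) and with GC and length correction (−0.13). Cox4i2 thus made up 11.8% and 11.1% of the FPKM of the pair in the wild type and 7.29% and 8.51% in the knockout. Cox7b, of the subunit VIIb, was at 69.93 and 69.57 FPKM against 78.49 and 81.69 FPKM (0.20, SE 0.03, adjusted p = 0.00188), a small rise that held under all 12 alternatives, although 2 annotated pseudogenes carry near-identical stretches. Cox6b2, the testis isoform of subunit VIb, was at 13.29 and 13.58 FPKM against 12.24 and 12.66 FPKM. Its groups did not overlap, and it was not called with FPKM (−0.10, adjusted p = 0.088) or TPM but was called lower with the other 3 scalings (adjusted p = 0.0105, 0.0240 and 0.00676). The paralog Cox7b2 was the member left untested, listed at 0 in each wild-type library and at 0.11 FPKM in each knockout library.

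The 3 muscle isoforms of complex IV were all higher in the knockout, where 33.5% of all genes tested were called higher. The widespread form of the same subunit did not pass the threshold in any of the 3 pairs with FPKM. Cox8b (Entrez 12869, chromosome 7, positions 140898945 to 140900446, minus strand) was at 6.17 and 8.18 FPKM in the wild type and at 15.69 and 19.82 FPKM in the knockout, the largest rise of the set (1.20, SE 0.14, adjusted p = 3.56e-04). Its partner Cox8a was at 167.18 and 173.77 FPKM against 172.73 and 182.31 FPKM (0.06, adjusted p = 0.224), a value called higher with TPM (0.18, adjusted p = 0.00313). Cox6a2 (Entrez 12862, chromosome 7, positions 128205435 to 128206387, minus strand) was at 15.80 and 13.49 FPKM against 26.80 and 30.78 FPKM (0.93, SE 0.09, adjusted p = 1.33e-04). Each knockout value of Cox8b and Cox6a2 was above both wild-type values, and both calls held under all 12 alternatives. Cox6a2 is overlapped on the other strand by the integrin gene Itgad, and whether reads were counted by strand is not known from the sources used. Its partner Cox6a1 was at 145.52 and 144.64 FPKM against 145.97 and 140.74 FPKM (−0.02), a value called higher with TPM (0.10) and lower with lens-free scaling (−0.10) or with GC and length correction (−0.11).

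Cox7a1 (Entrez 12865, chromosome 7, positions 30184144 to 30186078, plus strand) was the lowest of the 3 and the least certain. It was at 2.64 and 4.46 FPKM in the wild type and 5.62 and 5.44 FPKM in the knockout (0.55, SE 0.17, adjusted p = 0.0291). The wild-type values lay far apart, and the fold change was 0.26 without wild-type replicate 1 and 0.84 without wild-type replicate 2. Omitting knockout replicate 1 (adjusted p = 0.168), knockout replicate 2 (0.147) or the filter on low values (0.108) ended the call, and the alternatives spanned 0.00198 to 0.168. Its partner Cox7a2 was at 97.34 and 103.76 FPKM against 94.77 and 103.27 FPKM (−0.02), with overlapping groups.

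A share within a pair does not depend on library scaling. Cox6a2 made up 9.79% and 8.53% of the FPKM of its pair in the wild type and 15.5% and 17.9% in the knockout, 1.83 times as much on average. The share of Cox8b was 3.56% and 4.50% against 8.33% and 9.81%, 2.25 times as much, and that of Cox7a1 was 2.64% and 4.12% against 5.6% and 5.0%, 1.57 times as much. In each pair both knockout shares exceeded both wild-type shares, and the two-sided exact permutation p was 0.333 for each of the 3 pairs, the smallest that 2 libraries against 2 allow. The widespread form remained the more abundant in every library.

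Sarcomere and other skeletal muscle markers were higher in the same libraries. All 20 were called higher, where 33.5% of all genes tested were, with a median of 1.01 and a range of 0.51 to 1.15. Their summed level was 2181 and 2285 FPKM in the wild type and 4481 and 4580 FPKM in the knockout. The fold changes of Cox6a2 and Cox7a1 lay within that range and that of Cox8b just above it, though Cox7a1 was at 0.26 without wild-type replicate 1. That range is not particular to muscle. Markers of periocular mesenchyme ranged from 0.65 to 1.33 and those of surface epithelium from 0.87 to 1.69. The medians of lens and neural retina markers were −3.53 and −0.47. Markers of the other tissues known for these isoforms varied. The brown fat gene Ucp1 was at 0.07 to 0.20 FPKM, and the heart genes Myh6 (0.19 to 0.65 FPKM) and Nppa (0.32 to 0.65 FPKM) were also below the level tested. Cidea, also known from brown fat, rose from 0.99 FPKM in each wild-type library to 1.83 and 1.88 FPKM, and Tnni3, the heart troponin I, fell (6.18 and 6.36 to 4.86 and 3.96 FPKM, −0.43). The part of skeletal muscle content in the rise of the isoforms was not tested.

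**Figure D3:**
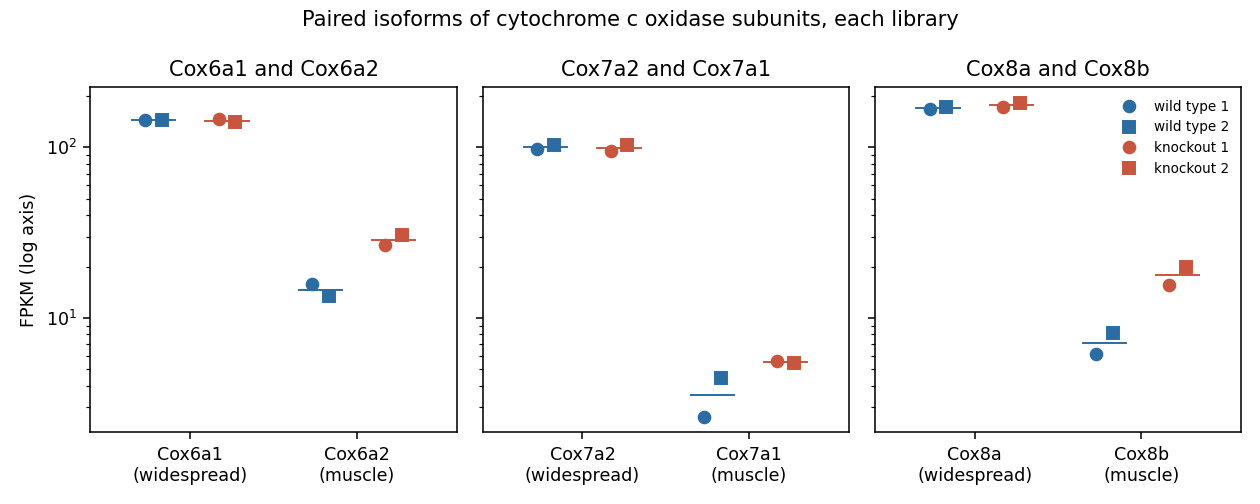
FPKM on a log axis in each library for the widespread and the muscle form of 3 complex IV subunits; circles are replicate 1, squares replicate 2, and bars the mean of 2 libraries. The muscle forms lie higher in both knockout libraries than in both wild-type libraries, and the widespread forms lie between 94.77 and 182.31 FPKM in all libraries.

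Promoter sequence is shown for the muscle forms whose window was in the RefSeq table, since these genes rose together, and for widespread forms of the same subunits. Windows run from 250 bases before the start that RefSeq lists for a gene to 50 after it, read on the strand of the gene from GRCm38.p6, while the gene positions given above are those of GENCODE. Capitals mark matches, on either strand, to 6 motifs. These were the core site of NRF1 (nuclear respiratory factor 1, GCGCA, any base and GCGC), that of the ETS factor GABPA (CCGGAAG), and that of YY1 (AAGATGG), all known regulators of respiratory chain genes, together with a site of the estrogen-related receptors (AAGGTCA), the MEF2 core of muscle genes (CTA, any 4 bases and TAG) and the TATA box (TATAAA). The windows are Cox8b (chr7:140900397-140900696, minus strand), Cox7a1 (chr7:30183921-30184220, plus strand), Cox7a2 (chr9:79759804-79760103, minus strand), Cox8a (chr19:7217567-7217866, minus strand) and Cox6a1 (chr5:115348909-115349208, minus strand).
Cox8b: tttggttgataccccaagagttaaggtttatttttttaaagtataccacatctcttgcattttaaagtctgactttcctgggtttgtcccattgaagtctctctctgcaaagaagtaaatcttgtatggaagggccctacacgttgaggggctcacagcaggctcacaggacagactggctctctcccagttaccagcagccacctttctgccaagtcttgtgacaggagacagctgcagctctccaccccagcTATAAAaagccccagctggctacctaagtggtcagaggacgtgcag
Cox7a1: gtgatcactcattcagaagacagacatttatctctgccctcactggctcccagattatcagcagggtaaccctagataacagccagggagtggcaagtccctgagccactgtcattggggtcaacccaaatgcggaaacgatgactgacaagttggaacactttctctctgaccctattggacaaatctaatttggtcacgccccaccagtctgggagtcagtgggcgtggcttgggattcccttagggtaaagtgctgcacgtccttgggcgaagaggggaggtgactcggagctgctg
Cox7a2: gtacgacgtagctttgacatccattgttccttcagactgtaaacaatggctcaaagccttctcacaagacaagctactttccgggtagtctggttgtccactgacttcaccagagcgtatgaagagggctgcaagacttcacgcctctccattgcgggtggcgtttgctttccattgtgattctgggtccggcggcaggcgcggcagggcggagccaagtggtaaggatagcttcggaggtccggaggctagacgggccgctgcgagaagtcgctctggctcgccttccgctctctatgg
Cox8a: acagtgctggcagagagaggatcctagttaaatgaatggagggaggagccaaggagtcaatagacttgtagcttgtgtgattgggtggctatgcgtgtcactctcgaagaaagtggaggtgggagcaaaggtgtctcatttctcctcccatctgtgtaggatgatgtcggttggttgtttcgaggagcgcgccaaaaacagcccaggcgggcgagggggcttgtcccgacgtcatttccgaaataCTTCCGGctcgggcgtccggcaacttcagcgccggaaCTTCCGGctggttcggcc
Cox6a1: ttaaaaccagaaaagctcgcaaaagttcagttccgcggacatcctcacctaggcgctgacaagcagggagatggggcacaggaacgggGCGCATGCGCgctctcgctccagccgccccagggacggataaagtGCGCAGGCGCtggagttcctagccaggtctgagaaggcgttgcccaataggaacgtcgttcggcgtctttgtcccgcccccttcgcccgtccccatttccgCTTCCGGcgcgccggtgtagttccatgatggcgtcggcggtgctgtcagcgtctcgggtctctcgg

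Of the muscle forms, Cox8b had a TATA box match and 2 CpG dinucleotides in its 300 bases, and Cox7a1 had 7 CpG dinucleotides and no match to any of the 6 motifs. The match in Cox8b lies at 4 to 9 bases after the start that RefSeq lists, not before it. The widespread forms shown had more CpG, with 20 in Cox7a2, 19 in Cox8a and 32 in Cox6a1. Median counts were 19 in the members' windows, 20 in those of genes tested and 7 in all. A low count is not particular to the muscle forms, since Cox7b had 5 and no match. No window was found for Cox6a2, the partner of Cox6a1. Cox7a2, the partner of Cox7a1, also had no match to the 6 motifs. Cox8a carried 2 GABPA sites, and Cox6a1 carried 2 NRF1 sites and 1 GABPA site. Over all members found in the table (68 of 85 genes, 73 windows), the NRF1 core was in 24.7% of windows, beside 9.05% of the windows of all genes tested and 4.60% of all windows. The GABPA core was in 23.3% beside 15.8% of windows of genes tested and 8.86% of all, and the YY1 core in 15.1% beside 6.47% and 6.34%. The site of the estrogen-related receptors was in 11.0% of members' windows beside 3.13% and 4.72%, the TATA box in 12.3% beside 7.35% and 13.6%, and the MEF2 core in 1.37% beside 3.07% and 3.69%. Median GC content was 57.3% in the members' windows, 60.7% in those of genes tested and 52.7% in all. A match describes the letters of the window and is not evidence that a factor binds there.

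The same windows are given for the largest called rise and the largest fall within complex I, Ndufb4 (chr16:37654319-37654618, minus strand) and Ndufa1 (chrX:37191189-37191488, minus strand), with capitals as above.
Ndufb4: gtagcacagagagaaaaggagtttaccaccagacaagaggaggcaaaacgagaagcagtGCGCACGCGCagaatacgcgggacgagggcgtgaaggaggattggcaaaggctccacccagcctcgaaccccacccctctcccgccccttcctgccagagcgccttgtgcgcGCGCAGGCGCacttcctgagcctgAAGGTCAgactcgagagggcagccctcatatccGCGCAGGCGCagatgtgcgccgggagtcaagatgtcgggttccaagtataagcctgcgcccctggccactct
Ndufa1: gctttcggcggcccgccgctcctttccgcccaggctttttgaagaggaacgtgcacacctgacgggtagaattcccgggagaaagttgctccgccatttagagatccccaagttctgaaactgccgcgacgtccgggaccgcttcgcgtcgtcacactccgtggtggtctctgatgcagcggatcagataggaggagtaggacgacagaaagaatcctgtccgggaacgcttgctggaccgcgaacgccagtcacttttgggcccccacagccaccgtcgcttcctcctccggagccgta

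Ndufb4 had 3 NRF1 cores and 1 site of the estrogen-related receptors, and Ndufa1 had no match to the 6 motifs. The windows held 23 and 29 CpG dinucleotides. The start that RefSeq lists for Ndufa1 lies upstream of the one in GENCODE, so its whole window lies before the gene as positioned above.

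Complex V, the ATP synthase, differed by small amounts. Of its 17 genes 5 were higher, none was lower and 12 did not pass, all of them within 0.2 of 0, with a median of 0.08. The called share was 29.4%, all upward, where 33.5% of all genes tested were higher and 21.1% lower. The split depended on scaling, with 14 higher and 0 lower for TPM, 1 and 0 with median-of-ratios scaling, 1 and 2 with GC and length correction, and 0 and 4 with lens-free scaling. The catalytic beta subunit Atp5b, the most abundant member, was at 459.64 and 461.11 FPKM in the wild type and 460.70 and 464.66 FPKM in the knockout, with overlapping groups. Atp5d, the delta subunit of the central stalk, was at 137.20 and 126.51 FPKM against 146.63 and 153.74 FPKM (0.19, adjusted p = 0.0110). Atp5md, a small membrane subunit, was at 118.28 and 135.99 FPKM against 143.19 and 142.24 FPKM (0.17, adjusted p = 0.0487; 0.07 without wild-type replicate 1 and 0.27 without wild-type replicate 2), and Atp5l, the g subunit of the membrane part, at 177.47 and 183.95 FPKM against 194.47 and 201.08 FPKM (0.13, adjusted p = 0.0133). The groups of these 3 genes did not overlap, yet none of the 3 was called with lens-free scaling. Leaving out single libraries also ended each call, with adjusted p from 0.00116 to 0.115 for Atp5d, 0.00312 to 0.230 for Atp5md and 3.45e-04 to 0.262 for Atp5l over the alternatives. Atp5l has 8 annotated pseudogenes with near-identical stretches, the most of any member, so its value is uncertain. Atp5a1 (0.10) and Atp5c1 (0.10) were the remaining calls. The 3 genes for the identical mature c subunit, Atp5g1, Atp5g2 and Atp5g3, did not pass. Of their summed FPKM, Atp5g2 held 37.8% and 37.7% in the wild type and 34.4% and 35.7% in the knockout, and Atp5g3 held 48.5% and 49.6% against 52.2% and 51.0%.

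The 2 genes kept apart were both called higher, as were 33.5% of all genes tested. Ndufa4l2, a relative of Ndufa4 known as a target of hypoxia-inducible factor that lowers respiration, was at 119.22 and 114.89 FPKM in the wild type and 134.19 and 135.65 FPKM in the knockout (0.20, SE 0.03, adjusted p = 0.00135), and the call held under all 12 alternatives. The gene Shmt2 overlaps Ndufa4l2 on the other strand. Cox7a2l, which joins complexes III and IV into supercomplexes, was at 168.12 and 173.44 FPKM against 187.45 and 186.34 FPKM (0.13, adjusted p = 0.00845), but was not called with median-of-ratios scaling, with lens-free scaling or without either knockout library (2.59e-04 to 0.238). Ndufa4l2 and Cox4i2 are both known to respond to low oxygen. In the same libraries the fold change was 0.20 for Ndufa4l2 (0.12 with lens-free scaling) and −0.62 for Cox4i2. A part of oxygen in either change was not tested.

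**Figure D4:**
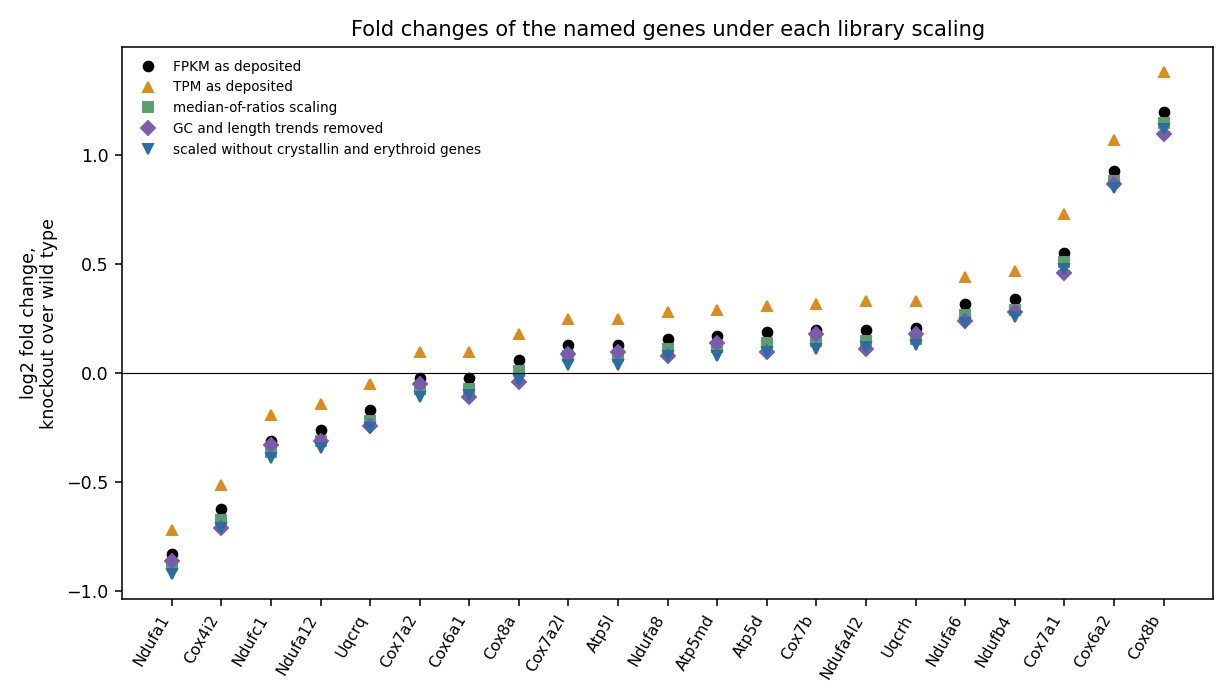
Log2 fold change of the 21 genes given in full, knockout over wild type, with FPKM as deposited and under 4 other scalings of the libraries, the last in the key being lens-free scaling. TPM lies above the other values throughout; Ndufa1, Cox4i2 and Ndufc1 stay below 0 and the 3 muscle isoforms, Ndufb4 and Ndufa6 stay above it under each scaling.

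Genes that act around the chain were described by the same counts, which also moved with scaling. Of 15 measured complex I assembly factors, 2 were higher and 2 lower, with a median of −0.01. Ndufaf5, a hydroxylase of a core subunit, rose from 7.88 ± 0.410 to 10.1 ± 0.778 FPKM (0.32, adjusted p = 0.00546) and Tmem126b from 11.9 ± 0.276 to 14.6 ± 0.346 FPKM (0.27), while Ndufaf3 (−0.20) and Nubpl (−0.19) fell, these falls not being called with TPM. Of 33 tested assembly factors of complexes II to V, 4 were higher and 2 lower, among them Sco2, a copper chaperone of complex IV (1.06 ± 0.233 to 1.58 ± 0.148 FPKM, 0.33, called under only 1 of the 4 other scalings), Tmem70, needed for ATP synthase assembly (0.23), and Coa7 (−0.27). Cytochrome c, encoded by Cycs, rose slightly (0.11, adjusted p = 0.0344), not under the 3 scalings other than TPM. Of 13 citric acid cycle genes 4 were higher and 0 lower, with a median of 0.04, and the fumarase gene Fh1 (26.6 ± 0.375 to 32.2 ± 0.212 FPKM, 0.27) was called under each scaling. Among 12 tested regulators of mitochondrial genes, 3 were higher and 1 lower. Esrra, an estrogen-related receptor, rose from 9.96 ± 0.0849 to 12.2 ± 0.933 FPKM (0.27, adjusted p = 0.00708), and Tfam, which packages mitochondrial DNA, fell from 15.6 ± 0.120 to 14.2 ± 0.0919 FPKM (−0.14, not with TPM). Of 11 genes for abundant mitochondrial proteins 5 were higher and 2 lower, with a median of 0.07, and of 16 protein import genes 1 was higher and 3 lower, with a median of −0.05, the largest fall being that of Timm50 (−0.24). The shares of all genes tested were 33.5% higher and 21.1% lower. With TPM and with lens-free scaling, in turn, the higher and lower genes numbered 4 and 0 against 2 and 3 for complex I assembly, 18 and 0 against 1 and 8 for assembly of the other complexes, and 10 and 0 against 1 and 2 for the citric acid cycle. They numbered 5 and 0 against 1 and 5 for the regulators, 9 and 0 against 2 and 3 for the abundant proteins, and 4 and 1 against 0 and 10 for protein import. Of all genes tested, 47.8% were higher and 11.4% lower with TPM, and 24.9% and 32.1% with lens-free scaling.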

How the data were processed

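RNA of eye tissue was profiled in 2 wild-type and 2 knockout libraries, with groups and numbers taken from the labels. Each library has its own deposited table of FPKM, and of TPM, which is FPKM times a constant of that library, per the file headers and the values. Cufflinks, DESeq, HISAT2 and TopHat, and the builds GRCm38 and GRCh38, are listed in the submitters' processing notes without versions or roles. Annotation, filters and strand handling are not known from the sources used.

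Genes were matched by Entrez number to GENCODE M21 and RefSeq, both of GRCm38. Depth was estimated from the steps between low FPKM values of single-transcript genes. Only 59.1% to 66.3% of these values came within 0.15 of whole fragments (30.0% by chance), so no count test was run. At that approximate depth the chi-square between replicates averaged 1.95 per gene in the wild type and 1.88 in the knockout (medians 0.64 and 0.54). How the excess over counting noise was spread among genes was not tested. The libraries were kept as 2 replicates.

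Knockout and wild type were compared over the 13887 genes averaging 1 FPKM or more in limma 3.58.1 (R 4.3.3), on log2(FPKM + 1) with a mean-variance trend, no covariate and two-sided tests, called at 0.05 after Benjamini-Hochberg adjustment. Fold changes on that scale understate the change of low genes. The code was tested on simulated data. Pseudogene copies were sought with BLAST+ 2.17.0, which found 18 of 84 members to share at least 200 bases at 95% identity with a pseudogene transcript. Another gene overlaps 29 members. These limits also hold for named genes where they are not repeated above. Ndufa12, Cox7a2l and Atp5c1 are among those with a pseudogene match, and Ndufa4l2, Atp5d and Atp5md among those overlapped on the other strand. Figures and summaries used Python 3.11.15.

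Values per library are given for the muscle isoforms and their partners, for up to 3 rises and 3 falls per complex among called genes averaging 5 FPKM or more, and for every called change of at least 0.5. Ndufa4l2 and Cox7a2l, and other members given by library, were added as counts of few genes or as levels. The members, lists and motifs were chosen with earlier results of these data known.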

Additional observations from a re-analysis of the deposited data

How the results depend on the processing

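The 12 alternatives were a pseudocount of 0.1, no filter, at least 5 FPKM in at least 2 libraries, TPM, 2 library rescalings, GC and length correction, a replicate block, and omission of each library. Over all genes, 7182 were higher and 1721 lower with TPM, and 4460 lower with lens-free scaling. Without single libraries the counts were 3373 to 3937 higher and 2042 to 2288 lower. Among the members, higher and lower genes numbered 54 and 3 with TPM, 7 and 25 with lens-free scaling, 9 and 12 with median-of-ratios scaling, and 10 and 17 with GC and length correction. Without single libraries they ranged from 7 to 26 higher and from 4 to 15 lower. The most higher members (26) came without wild-type replicate 2 and the fewest (7) without knockout replicate 2. The most lower members (15) came without wild-type replicate 1. The members' median log2 fold change, 0.048 with FPKM, was 0.169 with TPM, −0.039 with lens-free scaling, −0.004 with median-of-ratios scaling, −0.018 with GC and length correction, and 0.014 to 0.052 without single libraries. The cause of these shifts beyond the scaling itself was not tested. The share of Cox6a2 in its pair rose by 6.35 to 8.78 percentage points without single libraries, that of Cox7a1 by 1.18 to 2.66 and that of Cox8b by 4.30 to 5.78. Of 252 fold changes of the 21 named genes under alternatives, 208 stayed on the same side of the threshold, 40 lost the call, 3 gained one, and 1, that of Cox6a1 with TPM (0.10), was called against the sign of its FPKM value. With the replicate number as a block, 22 members were higher and 10 lower, and no call of a named gene changed. Equal numbers did not deviate together (correlation 0.044), and nothing in the labels pairs them. Levels near 1 FPKM, such as those of Cidea, and the lowest member tested, Cox7a1, are limited by depth.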
